A study of Homo sapiens with 6 samples.

Results

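The genes described here are a list of 8, named as common internal references for quantitative PCR and blots: ACTB, TBP, HPRT1, PPIA, YWHAZ, POLR2A, IPO8 and TFRC-AS1. Whether TFRC-AS1 is in such use was not checked. They were taken from the deposited expression table by gene symbol. Of the 8, 7 had a row among the 58735 genes of the table, and TFRC-AS1 had none and is not analysed here. RNA was sequenced in 6 libraries of HCT116SCs, which are stem-like cells sorted as CD44+ CD326+ from the colorectal cancer line HCT116 and grown as spheres in serum-free medium. In the NC group (n = 3) wild-type cells received a negative control siRNA, and in the siPSCA group (n = 3) cells received siRNA against PSCA, the gene of prostate stem cell antigen. The sequencing labels do not say which of the study's PSCA siRNAs was used. Cells of both groups were transfected with the same liposomal reagent and harvested 48 h later. The labels do not say whether libraries of a group came from separate cultures, so p-values measure only the spread between these libraries.

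An internal reference is a transcript or protein measured beside a target so that differences in the amount of material cancel out, and it serves only as far as its own level is the same in the conditions compared. The genes in use come from different cell functions, so that a single regulatory change is unlikely to move all of them. ACTB encodes cytoplasmic beta-actin, TBP the TATA-binding protein of the general transcription factor TFIID, and POLR2A the largest subunit of RNA polymerase II. PPIA encodes cyclophilin A, a peptidyl-prolyl isomerase that helps proteins fold, YWHAZ a 14-3-3 adaptor that binds phosphorylated proteins, IPO8 a nuclear import receptor, and HPRT1 the purine salvage enzyme hypoxanthine phosphoribosyltransferase.

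The libraries held 16099716 to 17302219 reads on genes. Levels are given as FPKM, that is fragments scaled to the length of the gene and to the read total of the library. CD44 (59.6 to 87.5 FPKM), EPCAM (93.3 to 122.9 FPKM, the gene of CD326) and CDH1 (18.8 to 32.1 FPKM) were present in all 6 libraries, and markers of leukocytes, endothelium and liver (PTPRC, CDH5, PECAM1 and ALB) stood at or under 0.223 FPKM. Among the fibroblast markers COL1A2 stood at or under 0.00533 FPKM and COL1A1 between 3.35 and 6.51 FPKM, and the muscle marker DES stood between 1.20 and 1.92 FPKM. PSCA itself had 4, 12 and 15 reads in NC and 9, 9 and 7 in siPSCA, so its knockdown was not detectable at this depth (log2 fold change -0.07, adjusted p = 0.728 in limma). The library NC 3 stood apart: read counts of NC 1 and NC 2 differed with a chi-square of 2.49 per degree of freedom, whereas NC 3 differed from them with 25.0 and 20.0. Fold changes, counts of called genes and stability values of the reference genes are therefore also given without NC 3. Counts of groups that did not overlap, calls of gene pairs and ranks within a wider panel of genes use all 6 libraries only.

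The number of reads behind each gene sets its precision. ACTB had 29834 to 43128 reads per library, YWHAZ 25371 to 35337, PPIA 18362 to 23443 and POLR2A 7446 to 9558. IPO8 had 1264 to 1590 reads, HPRT1 605 to 890 and TBP 378 to 479. The counting error was thus 0.523% of the level for ACTB and 4.86% for TBP, the shallowest of the 7. Within NC the coefficient of variation of TBP was 4.94% and within siPSCA it was 3.04%, so the spread between libraries of TBP was about as wide as counting alone would give.

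All 7 genes were expressed, over a wide range of levels. In FPKM, which is per length, the order in NC was ACTB, PPIA, YWHAZ, POLR2A, HPRT1, IPO8 and TBP, from 515.6 ± 10.9 (SD, n = 3) down to 9.97 ± 0.492. ACTB lay at the 99.8th percentile of tested genes and TBP at the 68.0th. In NC no neighbours in this order overlapped. In siPSCA the order of the lowest pair turned, with TBP at 11.0 ± 0.334 FPKM and IPO8 at 10.8 ± 0.224 FPKM, and their libraries overlapped.

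Between NC and siPSCA the 7 genes moved apart. Relative to the library total ACTB rose 1.31-fold, whereas HPRT1, YWHAZ and IPO8 fell to 0.722, 0.809 and 0.869 of their NC level, with YWHAZ and IPO8 turning to the other sign once the levels were adjusted for GC content and gene length. TBP, PPIA and POLR2A had means 1.10, 1.13 and 1.12 times those of NC, and these differences did not pass the test. The test was limma on log2(FPKM + 1) over the 13796 genes that averaged 1 FPKM or more, and a gene was called at an adjusted p under 0.05. By this rule 4 of the 7 reference genes were called (57.1%), 1 higher and 3 lower, beside 50.7% of all tested genes, 26.6% higher and 24.2% lower. Without NC 3, 5 of the 7 were called, 2 higher and 3 lower, with PPIA added. In all 7 genes the libraries of the groups did not overlap, 4 higher and 3 lower, which held for 64.5% of all tested genes, 33.7% higher and 30.8% lower. On the library total none of the 7 differed by more than 0.5 on the log2 scale, a size that 27.0% of tested genes exceeded. HPRT1 passed that size after rescaling to TPM (-0.511) and with each library centred on its median (-0.502). In RNA from whole cultures, a change in the level per cell and a change in the mix of cells cannot be told apart.

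**Figure D1:**
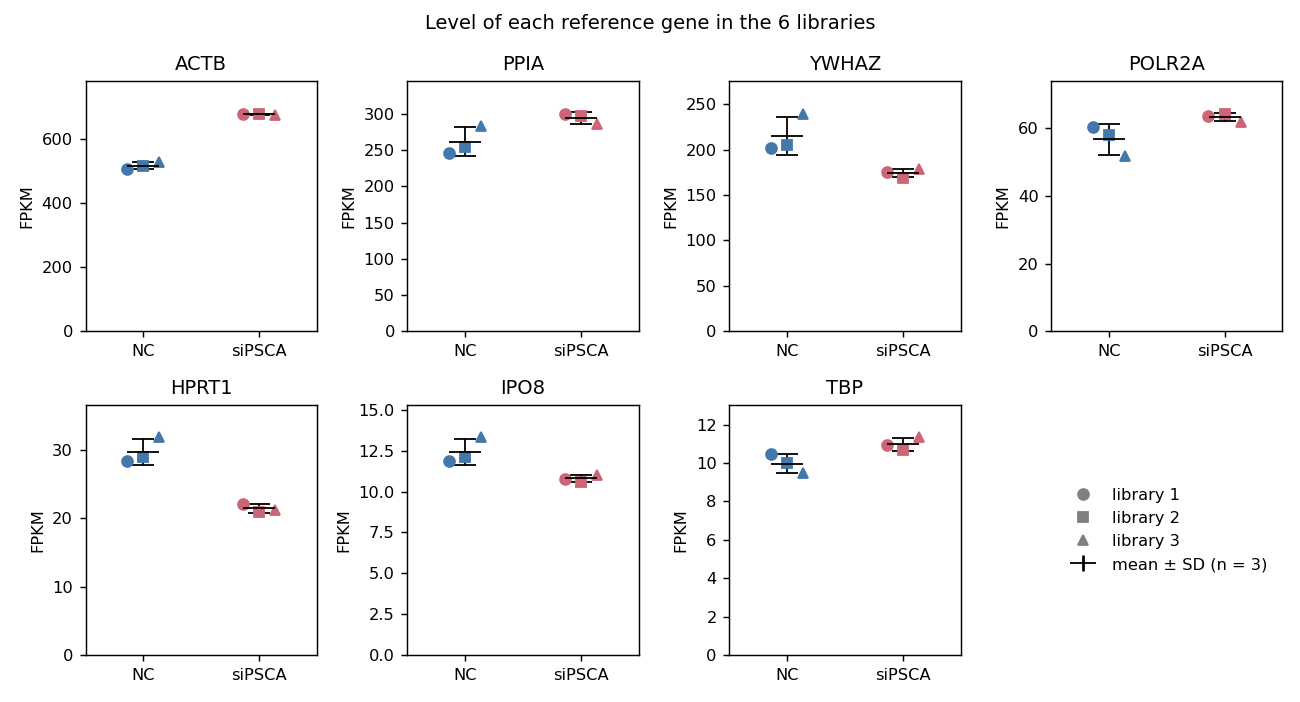
Level of each of the 7 reference genes in FPKM (y axes from 0) in the 3 NC (blue) and 3 siPSCA (red) libraries; symbols mark library numbers, horizontal lines the mean and error bars the SD (n = 3). ACTB stood between 672.7 and 677.6 FPKM in siPSCA, above every NC library, and HPRT1 between 21.0 and 22.1 FPKM, below every NC library.

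ACTB (ENSG00000075624) lies on the minus strand of chromosome 7 from 5527147 to 5563784 on GRCh38. Beta-actin polymerises into the filaments of the cell cortex and is the most used of these references. Its levels were 504.5, 516.0 and 526.3 FPKM in NC and 677.6, 676.1 and 672.7 FPKM in siPSCA. The siPSCA libraries were nearly equal, with a coefficient of variation of 0.370%, and all lay far above the NC libraries. The resulting log2 fold change was 0.39 (SE 0.04, 95% interval 0.29 to 0.49, adjusted p = 0.00140 in limma), and without NC 3 it was 0.40. When the trend of the levels on GC content and gene length was removed from each library, it was 0.14 and no longer called (adjusted p = 0.0638 in limma).

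The coding sequence of ACTB closely resembles that of ACTG1, which encodes the other cytoplasmic actin. The coding sequences have the same 1125 bases of length and 1027 of them are identical (91.3%), with a longest shared run of 59 bases. The first 30 coding bases are shown because they cover the acidic start of the protein by which the actins are told apart; capitals mark the 6 bases that differ. They were read from GENCODE release 29 (ACTB, exon 2, chr7:5529628-5529657, minus strand; ACTG1, exon 1, chr17:81512325-81512354, minus strand) on GRCh38.
ACTB: atggaTgaTgaTatcgccgcgctCgtcGtC
ACTG1: atggaAgaAgaGatcgccgcgctGgtcAtT
ACTG1 had 1321 ± 118 FPKM in NC and 1416 ± 15.3 FPKM in siPSCA (SD, n = 3), a log2 fold change of 0.10 that was not called (adjusted p = 0.279 in limma). With the GC and length trend removed it turned to -0.24 and was called lower (adjusted p = 0.0135 in limma). The table also lists 10 pseudogenes named after ACTB, and those with a read together held between 0.0768% and 0.132% of the reads of ACTB.

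Genes of the actin cytoskeleton did not share one direction. The list of 34 tested actin and actin-binding genes includes ACTB itself, which is among those called higher. In this list 9 were called higher and 6 lower (44.1% called, beside 50.7% of all tested genes), with a median log2 fold change of 0.02. ARPC4, a subunit of the ARP2/3 complex that nucleates branched filaments, rose (log2 fold change 0.89), as did SRF, the transcription factor that drives actin genes (0.75). RDX, which links actin to the membrane, fell by 0.77 on the log2 scale, and CAPZA1, a filament capping subunit, fell by 0.33. Without NC 3 the list held 12 higher and 9 lower, and with the GC and length trend removed 9 higher and 7 lower.

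TBP (ENSG00000112592, chromosome 6, 170554302 to 170572870, plus strand) had 10.4, 9.98 and 9.47 FPKM in NC and 10.9, 10.7 and 11.3 FPKM in siPSCA. All siPSCA libraries were above the NC libraries, the nearest by a small margin. Its log2 fold change of 0.13 was not called (SE 0.06, 95% interval -0.0061 to 0.26, adjusted p = 0.0972 in limma). The interval reaches 0.26, so TBP is not shown to be the same in both groups. Without NC 3 the log2 fold change was 0.10 (adjusted p = 0.127 in limma). With the trend on GC content and length removed it was 0.18 and not called (95% interval 0.0089 to 0.35, adjusted p = 0.0876 in limma). Over all 6 libraries TBP had the smallest standard deviation of the 7, 0.0856 on the log2(FPKM + 1) scale, and 1502 of the tested genes (10.9%) had a smaller one. Without NC 3 that of POLR2A was smaller, at 0.0586 against 0.0633.

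TBP was also set beside the TFIID subunits and the TBP-like factor TBPL1, a list that includes TBP itself. Of its 17 tested genes, 4 were called higher and 4 lower (47.1%, beside 50.7% of all tested genes), with a median log2 fold change of 0.02. TAF10 (0.55) and TAF11 (0.33) rose, and TBPL1, which is no TFIID subunit, was one of the 4 called higher (0.21). TAF1, the largest TFIID subunit, fell by 0.49 and TAF9B by 0.42. The count of 8 was 5 without siPSCA 1 and 5 without siPSCA 2, and without NC 3 there were 3 higher and 5 lower. With the GC and length trend removed there were 4 higher and 2 lower.

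POLR2A (ENSG00000181222, chromosome 17, 7484366 to 7514616, plus strand) had 60.4, 58.2 and 51.7 FPKM in NC and 63.7, 64.4 and 61.9 FPKM in siPSCA. NC 3 was the lowest library, at 0.873 of the mean of NC 1 and NC 2, and the groups did not overlap. Its log2 fold change of 0.16 was not called (SE 0.07, 95% interval -0.0026 to 0.32, adjusted p = 0.0898 in limma). Without NC 3 it was 0.09, and with the trend on GC content and length removed it turned to -0.03.

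Several other subunits of RNA polymerase II rose. Of the 12 subunit genes 7 were called higher and 0 lower (58.3% called), beside 50.7% of all tested genes, 26.6% higher and 24.2% lower, and the median log2 fold change was 0.31. The number lower was also 0 at an unadjusted p under 0.05 in limma and 0 with limma-voom on recovered reads. With the GC and length trend removed it was 1, POLR2H (-0.37), beside 7 higher; POLR2H was named after its value was seen. The count of 7 was 4 with each library centred on its median, 4 without siPSCA 1 and 6 without NC 3. POLR2L, a small subunit shared by all 3 nuclear RNA polymerases, rose from 26.5 ± 1.53 to 70.2 ± 10.4 FPKM (log2 fold change 1.36), and POLR2E rose by 0.71 on that scale. POLR2K (-0.11) and POLR2B (-0.09), the second largest subunit, were not called. With the GC and length trend removed both were called higher, at 0.25 and 0.16 (adjusted p = 0.0101 and 0.00844 in limma). POLR2F and POLR2I, also named after their values were seen, lost their calls there. The 7 called higher were thus not the same genes in both settings.

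PPIA (ENSG00000196262, chromosome 7, 44796680 to 44824564, plus strand) had 246.6, 254.3 and 284.1 FPKM in NC and 300.4, 297.6 and 285.6 FPKM in siPSCA. NC 3 and siPSCA 3 were nearly equal, and NC 3 stood at 1.13 times the mean of NC 1 and NC 2. PPIA had a log2 fold change of 0.17 (SE 0.06, 95% interval 0.02 to 0.33), which was not called (adjusted p = 0.0660 in limma). With NC 3 left out the log2 fold change was 0.23 and was called (adjusted p = 0.00321 in limma). It was also called with limma-voom on recovered reads (0.17, adjusted p = 0.0418 in limma) and with the trend on GC content and length removed (0.24, adjusted p = 0.00720 in limma).

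PPIA has the largest family of processed copies among the 7 genes. The table lists 88 pseudogenes named after PPIA, of which 37 had a read, and their reads came to between 0.928% and 1.41% of those of PPIA. The one with the most reads, PPIAP22, matches 493 of the 495 coding bases of PPIA (99.6%) and holds a shared run of 278 bases. It had 107, 89 and 94 reads in NC and 132, 176 and 170 in siPSCA. How reads matching both loci were divided is not given in the sources used here, so values of PPIA and its copies are uncertain to that extent.

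Of 16 tested cyclophilin genes, 2 were called higher and 7 lower (56.2%, beside 50.7% of all tested genes), with a median log2 fold change of -0.11. PPIF, the mitochondrial cyclophilin, rose by 0.68 and PPIL2 by 0.50. PPIG and NKTR, which carry long domains rich in arginine and serine, fell by 0.83 and 0.74. PPIA was the third highest of the family by fold change, behind PPIF and PPIL2. Leaving out NC 3 gave 3 higher and 7 lower, and removing the GC and length trend gave 6 higher and 5 lower.

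YWHAZ (ENSG00000164924, chromosome 8, 100916525 to 100953388, minus strand) had 201.5, 205.6 and 239.8 FPKM in NC and 175.3, 169.1 and 178.8 FPKM in siPSCA. NC 3 was the highest library, at 1.18 times the mean of NC 1 and NC 2, and the groups did not overlap. YWHAZ had a log2 fold change of -0.30 (SE 0.08, 95% interval -0.48 to -0.12, adjusted p = 0.0187 in limma), and without NC 3 it was -0.22 and still called (adjusted p = 0.00358 in limma). The call was lost without siPSCA 1 (-0.30, adjusted p = 0.0594 in limma) and without siPSCA 2 (-0.28, adjusted p = 0.0695 in limma). It was also lost without a minimum FPKM (adjusted p = 0.0582 in limma). With the trend on GC content and length removed the log2 fold change was 0.03 (adjusted p = 0.560 in limma). The 8 pseudogenes named after YWHAZ held at most 0.184% of its reads.

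YWHAZ was the one 14-3-3 gene of 7 called lower, and 3 were called higher, so 57.1% were called beside 50.7% of all tested genes. SFN, the epithelial 14-3-3 sigma, rose from 115.8 ± 9.75 to 203.1 ± 17.5 FPKM (log2 fold change 0.81), and YWHAH rose by 0.20. YWHAB (-0.08) was not called. The count of 4 was 2 with libraries centred on their median, 2 after rescaling to TPM, 2 without NC 2 and 1 without siPSCA 1, and it stayed at 3 higher and 1 lower without NC 3. With the GC and length trend removed 5 were called higher and YWHAZ was not called.

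IPO8 (ENSG00000133704, chromosome 12, 30628988 to 30695986, minus strand) had 11.9, 12.1 and 13.3 FPKM in NC and 10.8, 10.6 and 11.0 FPKM in siPSCA. Every siPSCA library was below every NC library, and NC 3 was the highest. At -0.18 its log2 fold change was the smallest among the 4 called genes (SE 0.06, 95% interval -0.33 to -0.04, adjusted p = 0.0394 in limma). It was -0.14 without NC 3 and still called (adjusted p = 0.0308 in limma). The call was lost when any of 4 other libraries was left out, with adjusted p in limma of 0.0734 without NC 2, 0.107 without siPSCA 1, 0.127 without siPSCA 2 and 0.0801 without siPSCA 3. It was also lost without a minimum FPKM (adjusted p = 0.0716 in limma). With the trend on GC content and length removed the sign turned, to 0.10 (adjusted p = 0.0760 in limma).

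In the importin-beta family, the transport receptors to which IPO8 belongs, 3 of 19 tested genes were called higher and 7 lower (52.6%, beside 50.7% of all tested genes), with a median log2 fold change of -0.16. XPOT, which exports tRNA, fell by 0.69, and IPO7, the closest relative of IPO8, fell from 66.0 ± 5.49 to 40.8 ± 1.92 FPKM (0.68 on the log2 scale). TNPO2 rose by 0.56 and IPO13 by 0.50. The log2 fold change of IPO8 was close to the median of the family. With NC 3 left out there were 4 higher and 7 lower, whereas with the GC and length trend removed the balance turned to 7 higher and 3 lower.

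HPRT1 (ENSG00000165704, chromosome X, 134460153 to 134520513, plus strand) had 28.3, 28.9 and 31.8 FPKM in NC and 22.1, 21.0 and 21.2 FPKM in siPSCA. The groups were widely separated, with the lowest NC library well above the highest siPSCA library. At -0.45 its log2 fold change was the largest of the 7 in size (SE 0.06, 95% interval -0.60 to -0.31, adjusted p = 0.00234 in limma). It was -0.40 without NC 3 and stayed called under each of the 14 alternatives run for it, among them the removal of the GC and length trend, where it was -0.14 (adjusted p = 0.0353 in limma). No read fell on the 3 pseudogenes named after HPRT1.

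Purine salvage and synthesis genes moved in both directions. Of 25 tested, 7 were called higher and 5 lower (48.0%, beside 50.7% of all tested genes), with a median log2 fold change of 0.0014. APRT, which salvages adenine as HPRT1 salvages hypoxanthine and guanine, had 29.9 ± 10.3 FPKM in NC and 69.1 ± 6.37 FPKM in siPSCA (log2 fold change 1.24, adjusted p = 0.0103 in limma). IMPDH1, which leads to guanine nucleotides, rose by 0.85. NT5E, the surface enzyme that makes adenosine, fell by 1.11 on the log2 scale, and HPRT1 had the second lowest value of the list. The counts were again 7 and 5 without NC 3, and 10 and 3 with the GC and length trend removed.

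**Figure D2:**
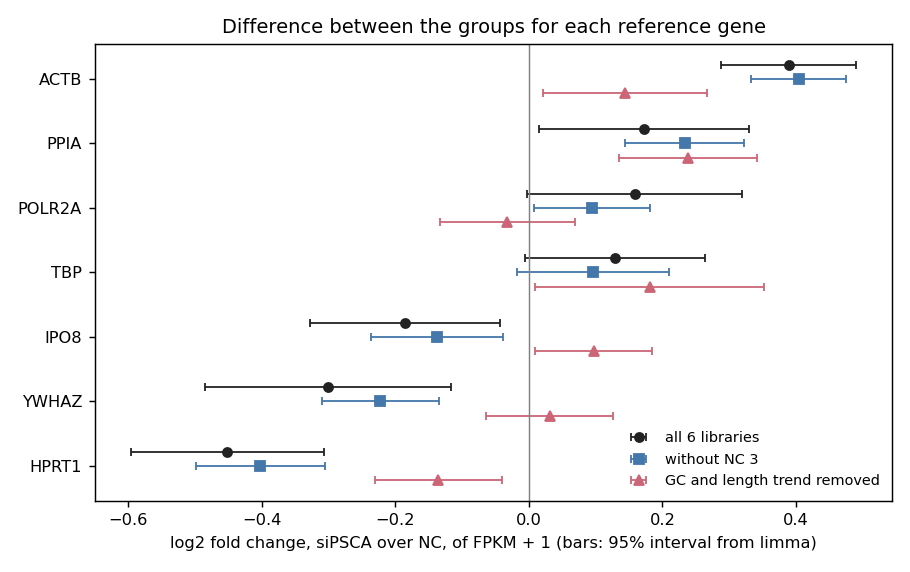
Log2 fold change of FPKM + 1, siPSCA over NC, of each reference gene (points, with bars for the 95% interval from limma) with all 6 libraries (black circles), without NC 3 (blue squares) and with the trend on GC content and gene length removed (red triangles). ACTB stood at 0.39 and HPRT1 at -0.45 with all libraries, and the range narrowed to between -0.14 and 0.24 once the trend was removed.

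The 3 genes that fell on the library total were the poorest of the 7 in G and C bases. HPRT1, YWHAZ and IPO8 had a GC content of 40.6%, 40.7% and 41.7% in their longest transcript, below the median of 48.1% over tested genes. ACTB and POLR2A, with log2 fold changes above 0, had 55.1% and 56.1%. PPIA (46.0%) and TBP (46.4%) lay between. Over all tested genes, fold change and GC content had a Spearman coefficient of 0.66, and the difference of NC 3 from NC 1 and NC 2 went with GC content at -0.56. These are descriptions across genes, which are not independent and share the same 6 libraries. Whether base composition entered through the libraries or through the cells was not tested. With the trend removed, 2 of the 7 were called, PPIA higher and HPRT1 lower, beside 40.0% of all tested genes.

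A reference can also be judged against the other references, which needs no library total. For each gene the stability value M was computed as the mean, over the other 6, of the SD of the log2 ratio of their FPKM across the 6 libraries, so that a low M marks a gene that keeps its ratio to the rest. TBP had the lowest M at 0.196, followed by IPO8 at 0.200, PPIA at 0.204, POLR2A at 0.211 and YWHAZ at 0.233. ACTB followed with 0.271, and HPRT1 had the highest value at 0.300. When the gene with the highest M was removed step by step, HPRT1 left first, then YWHAZ, IPO8, ACTB and PPIA. TBP and POLR2A remained as the pair with the steadiest ratio, with an SD of 0.0567. IPO8 was second in the first ranking and the third to be removed, so its place depended on which genes were kept beside it. Without NC 3 the lowest M were those of POLR2A (0.154) and TBP (0.157), which were again the last pair, with an SD of 0.0516. HPRT1 (0.275) and ACTB (0.257) were again the highest, and YWHAZ fell in behind PPIA at 0.187.

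Of the 21 pairs that the 7 genes form, 18 had ratios whose groups did not overlap. The share among pairs of other tested genes was not computed, so this count only describes the 7. The 3 pairs that overlapped were those among TBP, PPIA and POLR2A. The mean log2 ratio of PPIA to POLR2A changed by 0.01, of TBP to POLR2A by -0.02 and of TBP to PPIA by -0.03. The 95% intervals in limma, after scaling every library to the second gene of the pair, were -0.26 to 0.28, -0.19 to 0.15 and -0.26 to 0.20. Without NC 3 the changes were 0.14, 0.0089 and -0.13, so the ratio of TBP to POLR2A alone stayed within 0.1 of 0 in both cases. The ratios were not computed with the GC and length trend removed. In that setting the log2 fold changes of the single genes lay further apart, at 0.18 for TBP, 0.24 for PPIA and -0.03 for POLR2A. At the other end the ratio of ACTB to HPRT1 rose by 0.86, or 1.81-fold, and by 0.82 without NC 3.

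In the same scaled fits, 16 pairs were called whichever gene served as the reference, ACTB with POLR2A was called in one way only, and 4 pairs were called in neither. These fits called between 45.1% (scaled to PPIA) and 65.9% (scaled to HPRT1) of all tested genes. The fourth of these, beside the 3 named above, was YWHAZ with IPO8 (-0.10, 95% interval -0.21 to 0.0048, adjusted p = 0.0944 in limma). HPRT1 with YWHAZ, both lower in siPSCA, still differed from each other (-0.16, adjusted p = 0.0474 in limma).

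**Figure D3:**
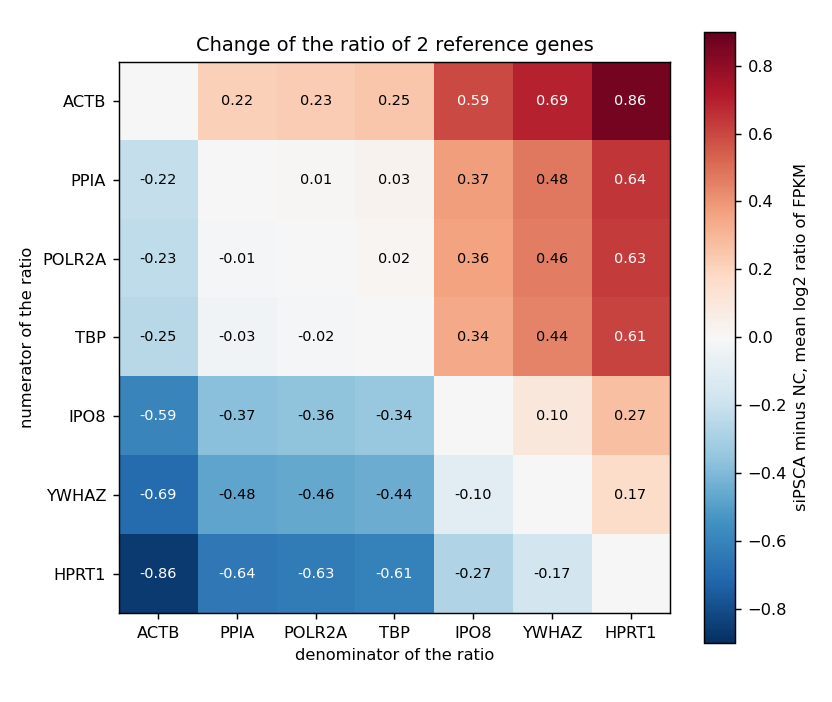
Change from NC to siPSCA of the mean log2 ratio of FPKM for each pair of reference genes, with the gene in the row as numerator and the gene in the column as denominator; red marks a rise and blue a fall. The block of PPIA, POLR2A and TBP is near white, with changes of at most 0.03 in size, and the corner of ACTB over HPRT1 reaches 0.86.

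Division by a reference gene moves every other gene by the reverse of that reference's own fold change, so the values below follow from those given above and are no separate evidence. Each library was divided by its level of one reference gene and the same test was run on all other genes. With the library total as the scale, 7001 genes (50.7%) were called, 3668 higher and 3333 lower, or 52.4% of the calls higher. Scaled to ACTB, 8008 genes (58.1%) were called and 11.1% of them were higher, with a median log2 fold change over all genes of -0.31. Scaled to HPRT1, 9087 genes (65.9%) were called and 91.8% of them were higher, with a median of 0.39.

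The other references lay between these. Of tested genes 45.1% were called with PPIA, 48.4% with TBP, 46.4% with POLR2A, 52.9% with IPO8 and 53.0% with YWHAZ. The share of these calls that were higher was 24.7% of 6226 with PPIA, 37.9% of 6671 with TBP and 38.6% of 6407 with POLR2A. It was 73.2% of 7292 with IPO8 and 82.7% of 7312 with YWHAZ. The medians of all genes were shifted to -0.13 with PPIA, -0.11 with TBP, -0.12 with POLR2A, 0.17 with IPO8 and 0.25 with YWHAZ. Dividing by the geometric mean of the 7 gave 7003 calls (50.8% of tested genes), 52.7% of them higher, and a median of 0.02. The upward and downward genes of the set thus cancelled, and 1.16% of tested genes changed sign against the library total, whereas 31.0% did with HPRT1 and 24.9% with ACTB.

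Without NC 3 the share of higher calls was 13.3% with ACTB, 27.0% with PPIA, 40.2% with TBP and 42.8% with POLR2A. It was 71.7% with IPO8, 78.8% with YWHAZ and 90.9% with HPRT1, in the same order of references as with all 6 libraries.

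**Figure D4:**
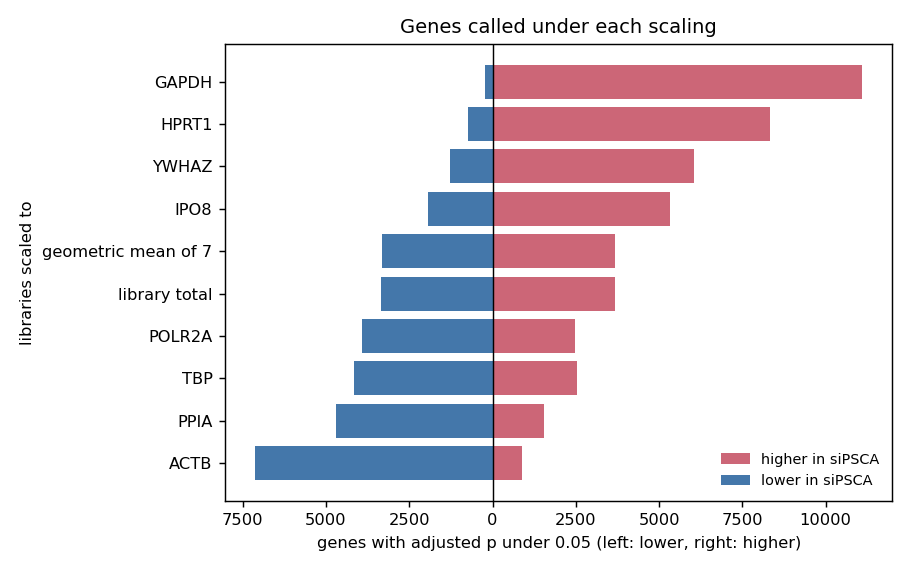
Number of genes called at an adjusted p under 0.05 in limma as higher (red, to the right of 0) or lower (blue, to the left) in siPSCA when the libraries were scaled to the total, to each reference gene, to the geometric mean of the 7 or to GAPDH. The split runs from 890 higher and 7118 lower with ACTB to 11097 higher and 223 lower with GAPDH.

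GAPDH, a glycolytic enzyme that served as the loading control of the study's blots, was not among the 8 genes and is given for comparison at the level of its RNA. It had 1460, 1477 and 1356 FPKM in NC and 805.0, 781.8 and 800.3 FPKM in siPSCA. The siPSCA libraries all lay far below the NC libraries. GAPDH had a log2 fold change of -0.85 (SE 0.05, 95% interval -0.97 to -0.72, adjusted p = 0.000349 in limma), and -0.88 without NC 3. Scaled to each of the 7 references in turn it was called lower every time, from -0.38 with HPRT1 to -1.23 with ACTB. Scaling the libraries to GAPDH moved the median of all genes to 0.69, the arithmetic counterpart of its own fall, and gave 11320 calls (82.1% of tested genes) with 98.0% of them higher. RNA levels do not give the level of the protein on a blot, which was not analysed here.

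DUSP4, a phosphatase of MAP kinases, and CDH1, the epithelial cadherin, show this for single targets; both were chosen after their values were seen. DUSP4 had 48.6 ± 2.76 FPKM in NC and 50.7 ± 0.565 FPKM in siPSCA (SD, n = 3). On the library total its log2 fold change was 0.06 (adjusted p = 0.384 in limma). Scaled to ACTB it was called lower, at -0.32 (adjusted p = 0.00539 in limma), and scaled to HPRT1 it was called higher, at 0.52 (adjusted p = 0.00311 in limma). With TBP, PPIA and POLR2A it was -0.08, -0.11 and -0.10 and not called. With YWHAZ it was called higher, at 0.36 (adjusted p = 0.0381 in limma), and with IPO8 it was 0.26 (adjusted p = 0.0531 in limma). CDH1 had 30.1 ± 2.04 and 19.5 ± 0.610 FPKM. Its log2 fold change was -0.60 on the library total, -0.97 with ACTB, and -0.15 and not called with HPRT1 (adjusted p = 0.0649 in limma). With the other 5 it was called lower, from -0.31 with YWHAZ to -0.77 with PPIA.

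TFRC, the transferrin receptor gene that is itself in use as a reference and from which the missing TFRC-AS1 takes its name, had 36.6 ± 1.50 FPKM in NC and 43.9 ± 0.795 FPKM in siPSCA. Its log2 fold change was 0.26 (adjusted p = 0.00729 in limma), and 0.28 without NC 3. It was 0.56 with the GC and length trend removed, and scaled to ACTB it was called lower, at -0.12 (adjusted p = 0.0411 in limma). Scaled to HPRT1, YWHAZ and IPO8 it was called higher, at 0.71, 0.55 and 0.45. With TBP, PPIA and POLR2A it was 0.12, 0.09 and 0.10 and not called. These values say nothing of the antisense transcript.

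Among a wider panel of 56 other genes in use as references, all with a mean of at least 1 FPKM, 22 were called higher and 9 lower (55.4%), beside 50.7% of all tested genes, 26.6% higher and 24.2% lower, and the median log2 fold change was 0.07. Without NC 3 there were 25 higher and 10 lower, and with the GC and length trend removed 20 higher and 11 lower. Of these 56, 10 differed by more than 0.5 on the log2 scale and 37 had a 95% interval wholly within 0.5 of 0. Among the 7 references the interval lay within 0.5 for 6, all but HPRT1, and over all tested genes it did for 44.3%. The lowest log2 fold changes in the panel belonged to the glycolytic genes LDHA (-1.54) and GPI (-1.36). ARHGDIA (1.17) was among the highest.

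Ranked by standard deviation over the 6 libraries among these 63 genes, TBP was 12th, POLR2A 21st, IPO8 22nd and PPIA 23rd. YWHAZ was 41st, ACTB 44th and HPRT1 47th. The ranks were not computed without NC 3. There the standard deviations were 0.0586 for POLR2A, 0.0633 for TBP, 0.0785 for IPO8, 0.125 for YWHAZ and 0.132 for PPIA. Those of ACTB and HPRT1 were both 0.222. The smallest values in the panel were those of CASC3 (0.0385), part of the exon junction complex, C1orf43 (0.0395) and ALAS1 (0.0475), the first enzyme of heme synthesis. CASC3 had 18.1 FPKM in NC and 18.3 FPKM in siPSCA on average. LDHA (0.850), GPI (0.746) and ARHGDIA (0.669) had the largest. Over all tested genes the median standard deviation was 0.215, and ACTB (0.214) and HPRT1 (0.254) stood near it.

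**Figure D5:**
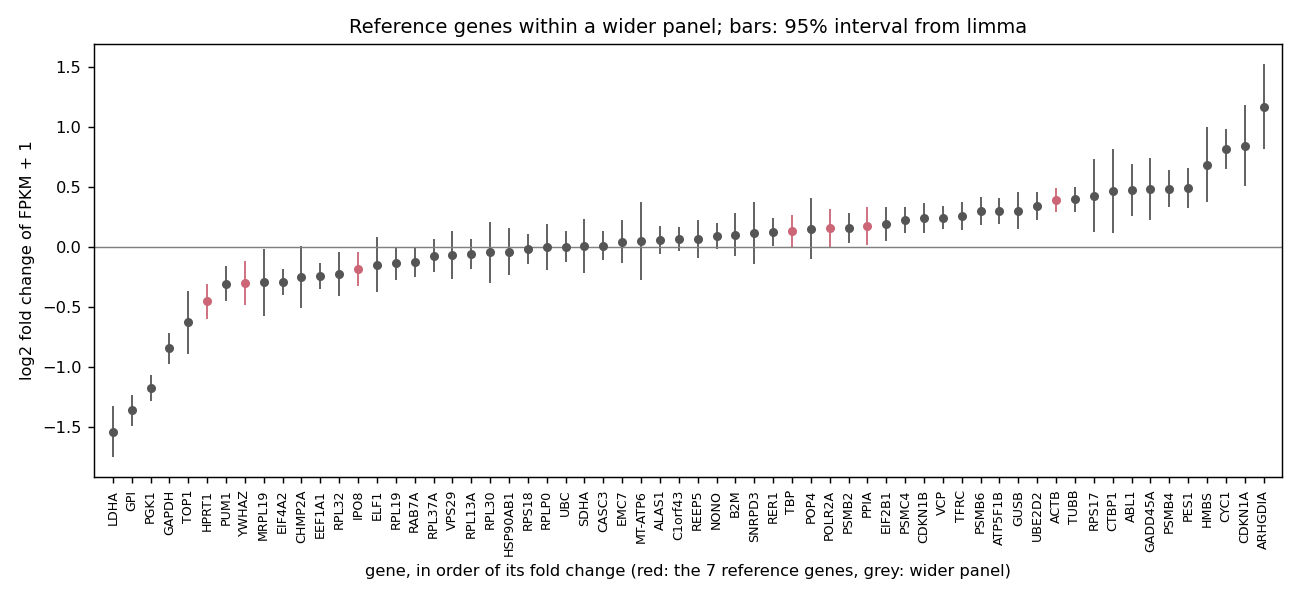
Log2 fold change of FPKM + 1, siPSCA over NC (y axis), of the 7 reference genes (red) and of 55 other genes in use as references (grey), in order of the fold change, with bars for the 95% interval from limma. The 7 lie between -0.45 and 0.39, inside a plotted panel that runs from -1.54 for LDHA to 1.17 for ARHGDIA.

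For each reference the protein-coding gene with the most similar profile was sought by Pearson's r of log2(FPKM + 1) over the 6 libraries, among 11078 genes. The closest were COX5A to ACTB (0.999), HEMK1 to TBP (0.996), WDFY1 to HPRT1 (0.999), GLRX5 to PPIA (0.999), DNTTIP1 to YWHAZ (0.999), ACTR1B to POLR2A (0.999) and THUMPD3 to IPO8 (1.000). These are descriptions over 6 libraries in 2 groups. HPRT1 had 160 genes above 0.99, YWHAZ 106, IPO8 106, ACTB 105 and POLR2A 82, whereas PPIA had 6 and TBP 2.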

How the data were processed

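TRIzol was used to extract total RNA of HCT116SCs, and sequencing libraries were prepared with a NEBNext Ultra kit. Across 6 libraries the authors deposited FPKM values of 58735 genes in 1 table. The genome build was GRCh38 per the submitters' processing notes, and gene positions were those of GENCODE release 29. The aligner, the counting program and the use of strand are not given in the sources used here. Multiplying by gene length gave whole numbers of reads, within 0.01 reads, for 100% of values, so reads were recovered. The library total behind the deposited FPKM values ranged from 16803235 to 18218661. Intervals on counts cover counting error only.

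The linear model of limma 3.58.1 in R 4.3.3 (eBayes with trend, two-sided) was fitted to log2(FPKM + 1) with group as the only term. It covered 13796 genes that averaged 1 FPKM or more, with Benjamini-Hochberg adjustment over all of them, and every adjusted p comes from limma. Fold changes are on the log2(FPKM + 1) scale, which understates those of low genes. PSCA lay under the minimum and was fitted without it. With 3 libraries against 3, an exact permutation test cannot go below p = 0.1 and was not used. Limma-voom on the recovered reads, other pseudocounts, minimums and scalings, removal of a spline trend on GC content and length, and leaving out each library were alternatives; scaling to each gene and stability without NC 3 were added after seeing the data. The fit was tested on simulated data. Summaries and plots used matplotlib 3.10.9, numpy 2.4.6 and pandas 2.3.3 under Python 3.11.15.

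The reference genes and the gene lists were chosen with earlier results of these data known. Named by rule were every reference gene, the 2 largest and 2 smallest fold changes of each list, the 3 smallest and 3 largest standard deviations of the wider panel, GAPDH, ACTG1, pseudogenes, the closest profile to each gene and PSCA. The titles of siPSCA 2 and siPSCA 3 carry other numbers after HCT than the other labels, which all name HCT116; both were kept. One gene of the wider panel is counted but not reported here by name or in the plot.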

Additional observations from a re-analysis of the deposited data

How the results depend on the processing

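With all 6 libraries 4 of the 7 reference genes were called. The number lay between 2 and 5 when single libraries were left out, lowest without siPSCA 1 and without siPSCA 2. It was 2 without a minimum FPKM, ACTB and HPRT1. With the trend on GC content and length removed it was also 2, HPRT1 and PPIA, and PPIA was not among the 4. Removal of that trend turned the log2 fold changes of IPO8 to 0.10, of POLR2A to -0.032 and of YWHAZ to 0.031, and the cause was not tested. HPRT1 and TBP kept their direction and their side of the threshold under all 14 alternatives. The count over all genes, 7001, lay between 4627 (without siPSCA 1) and 7425 (without NC 3) when single libraries were left out. It was 11320 with libraries scaled to GAPDH and 11621 with that scaling without NC 3, and between 6869 and 9126 when scaled to any of the 7 genes without NC 3. Higher against lower calls were 3302 and 3480 after rescaling to TPM, 3260 and 3535 with libraries centred on their median, and 3253 and 2271 with the GC and length trend removed. The wider panel's count of 31 ran from 26 to 35 when single libraries were left out and stayed within 1.5 times its value under all 14 alternatives.

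Deviations of libraries with the same replicate number correlated over genes at 0.0955, 0.0132 and 0.134. NC 2 correlated more with siPSCA 1 (0.0363) than with siPSCA 2. With 3 libraries per group, deviations from the group mean depend on each other, so these values cannot decide whether libraries were paired. The numbers were not taken as pairs in the fits above. With the replicate number as a block, 6725 genes were called, 4 of the reference genes remained called and 28 genes of the wider panel were called. The fewest reads, on TBP, limit what could be seen there.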
